A study of Mus musculus with 6 samples.

Results

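The 10 genes described here, *Ccnl1*, *Ccnl2*, *Sfrs18*, *Clk1*, *Clk2*, *Clk3*, *Clk4*, *Luc7l*, *Luc7l2* and *Rbm39*, encode proteins that control pre-mRNA splicing, and each was taken by its deposited gene name from a table of 38553 genes. All 10 were among the 10061 genes that passed the filter on low values and were tested. They were grouped by a known trait, introns that stay in otherwise finished transcripts, but *Ccnl2* and *Sfrs18* were picked on differences between mutant and control that had been measured in this study, and the other members were named with earlier results of the same contrast known. Their differences between mutants and controls are therefore given as a description, with intervals, and no p-value of a member is printed or read as evidence.

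RNA-Seq was performed on 6 samples of craniofacial tissue from mouse embryos at E12.5. The 3 controls were *Rbfox2* flox/flox without Cre, and the 3 mutants were Pax3Cre/+:Rbfox2 flox/flox, so that both groups carried the floxed alleles and the mutants alone carried the Cre. Rbfox2 is a splicing factor that binds the RNA motif UGCAUG. The Cre is a knock-in allele of *Pax3*, which is active in the dorsal neural tube, the neural crest and the somites. The dissected tissue also held cells without Cre activity. Loss of *Rbfox2* and the knock-in allele with its Cre cannot be told apart in this design.

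Most introns are removed as a transcript is made, but a set of introns known as detained introns is spliced slowly, and the polyadenylated transcripts that hold them wait in the nucleus. Genes for splicing regulators are rich in such introns. The CLK kinases phosphorylate the SR proteins, the serine- and arginine-rich factors that help to choose splice sites, and their activity sets how many of these introns are removed, those of the *Clk* genes included. Cyclins L1 and L2, encoded by *Ccnl1* and *Ccnl2*, pair with the CDK11 kinases and have a role in splicing, the LUC7-like proteins are relatives of a U1 snRNP subunit that acts at 5′ splice sites, and Rbm39 is related to the U2AF splicing factors. *Sfrs18*, now named *Pnisr*, encodes a nuclear speckle protein with a serine- and arginine-rich region. Of the 10 genes, then, only the 4 *Clk* genes encode kinases.

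Expression is given in FPKM, fragments scaled to the length of the gene and to the mapped fragments of the sample, which can be compared between genes because it is divided by length. Each value is for the whole gene, and transcripts with and without a detained intron cannot be told apart in it. The FPKM values of a sample summed to between 528123 and 590174, and the number of reads behind a value is unknown. *Rbfox2* was at 58.4, 65.0 and 61.3 FPKM in control samples and at 38.1, 36.3 and 34.3 in mutant samples, without overlap (two-sided exact permutation p = 0.10, and no smaller p is possible with 3 samples a group). On the first principal component of all genes tested, which held 54.7% of the variance, control and mutant replicates 1 lay far from the other samples. The mean FPKM of 4 Y-linked genes was 14.4 and 13.9 in mutant replicates 1 and 2 and no more than 0.0541 in the other samples. Samples with Y-linked expression were thus found among the mutants only, so sex is partly confounded with genotype. The summed FPKM of 6 neuronal markers was 606 to 713 in controls and 753 to 860 in mutants, while that of 6 cranial mesenchyme markers overlapped, at 356 to 407 and 323 to 401. A covariate for Y-linked expression was fitted as an alternative. Apart from that, the part of these differences in the values of the 10 genes was not tested.

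*Ccnl2* (ENSMUSG00000029068, chr4:155812489-155824543, plus strand, GRCm38), the gene for cyclin L2, was at 51.7, 47.2 and 37.1 FPKM in control replicates 1, 2 and 3 and at 39.8, 29.9 and 32.6 in mutant replicates 1, 2 and 3. Mutant replicate 1 lay above control replicate 3, so that the groups overlapped, although the mutant was lower in each replicate number. Control samples averaged 45.4 ± 7.46 and mutant samples 34.1 ± 5.09 (SD, 3 samples each), or 75.2% of the control. On the scale of log2(FPKM + 1) used for all fold changes, the difference was -0.40, with a 95% interval from -0.75 to -0.042 from limma. *Ccnl2* was the only member whose interval did not include 0. Because it was picked on this contrast, its interval is a description and not a test. The interval did include 0 under 6 of 15 alternatives, namely without control replicate 1, control replicate 2, mutant replicate 2 or mutant replicate 3, with quantile normalization and with a covariate for Y-linked expression. Fewer cells with this RNA and less RNA per cell cannot be told apart in tissue samples such as these.

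*Sfrs18* (ENSMUSG00000028248, chr4:21847583-21876475, plus strand) had the largest difference of the 10 genes and also the widest spread. It was at 60.8, 42.2 and 29.98 FPKM in control replicates 1, 2 and 3 and at 47.2, 23.6 and 23.7 in the mutants. The first replicate was the highest of its group in both groups, and mutant replicate 1 exceeded control replicates 2 and 3. The means were 44.3 ± 15.5 and 31.5 ± 13.6 (SD, n = 3 each), and the log2 difference was -0.50 with an interval from -1.28 to 0.28. It was -0.36 in replicate 1, -0.81 in replicate 2 and -0.33 in replicate 3. The pooled SD within groups was 0.53 on the log2 scale, larger than in 98.9% of the genes tested. Over replicates 2 and 3 alone it was -0.57. Leaving out a single sample unbalanced the groups and moved it from -0.25 without control replicate 1 to -0.82 without mutant replicate 1.

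**Figure D1:**
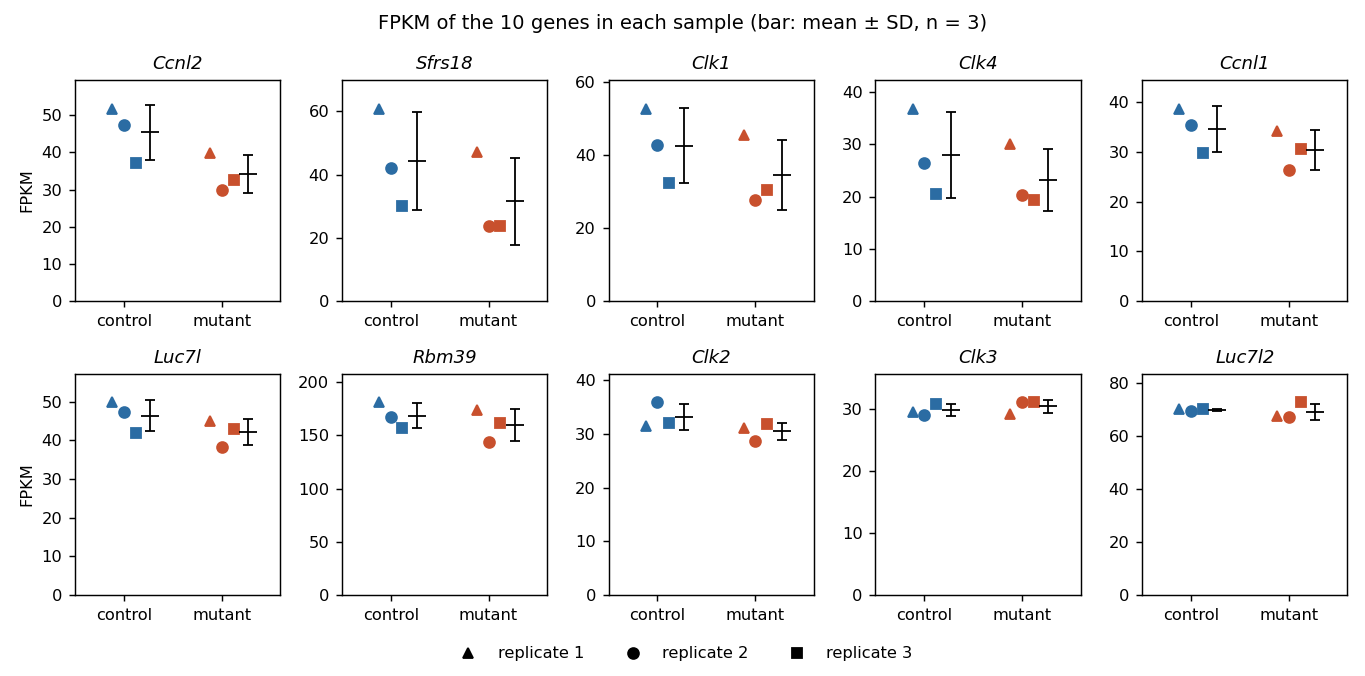
FPKM (vertical axes, each from 0) of the 10 genes in each control and mutant sample, with symbols for the replicate number and bars for the mean ± SD of 3 samples. In the first 7 panels control replicate 1 is the highest sample, *Clk3* and *Luc7l2* vary least, and no gene has control and mutant values that do not overlap.

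The 4 *Clk* genes, which encode kinases of the same family, fell into a pair that varied more and a pair that varied less. *Clk1* (ENSMUSG00000026034, chr1:58410189-58424066, minus strand) was at 52.6, 42.7 and 32.3 FPKM in control replicates 1, 2 and 3 and at 45.4, 27.8 and 30.4 in the mutants. *Clk4* (ENSMUSG00000020385, chr11:51261730-51281766, plus strand) was at 36.8, 26.5 and 20.6 in the controls and at 30.1, 20.3 and 19.3 in the mutants. In both genes the order from high to low began with control replicate 1, mutant replicate 1, control replicate 2 and control replicate 3. Their log2 differences were -0.30 (interval -0.83 to 0.24) and -0.24 (interval -0.80 to 0.31), each mutant was lower than the control of its replicate number, and the groups overlapped. Over replicates 2 and 3 alone the differences were -0.34 for *Clk1* and -0.23 for *Clk4*. With single samples left out, *Clk1* was at -0.13 without control replicate 1, -0.16 without mutant replicate 2, -0.48 without control replicate 3 and -0.51 without mutant replicate 1. In the same way *Clk4* was at -0.033 without control replicate 1, -0.13 without mutant replicate 3 and -0.44 without control replicate 3 or mutant replicate 1.

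*Clk2* (ENSMUSG00000068917, chr3:89164795-89176921, plus strand) was at 31.4, 35.9 and 32.1 FPKM in the controls and at 31.0, 28.8 and 31.8 in the mutants, a log2 difference of -0.11 with an interval from -0.31 to 0.085. Most of it came from replicate 2, at -0.31, against -0.017 and -0.012 in replicates 1 and 3, and it was -0.055 without control replicate 2 and -0.072 without mutant replicate 2. *Clk3* (ENSMUSG00000032316, chr9:57750624-57765860, minus strand) was at 29.6, 29.0 and 30.8 in the controls and at 29.1, 31.0 and 31.0 in the mutants. Its highest sample was 1.07 times its lowest, against 1.89 for *Clk1* and 1.90 for *Clk4*. The difference of *Clk3*, 0.027, had an interval from -0.14 to 0.19, and it was the only member with a higher mean in the mutants.

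The annotation of the *Clk* genes shows what they share beside their kinase domain. In GENCODE M21 for GRCm38, each of the 4 genes has retained-intron transcripts that span both introns around an exon of 85 to 97 bases, and the intron after this exon is 276 to 391 bases long. *Clk4* has a further exon of this kind, of 95 bases, which is not shown. The 5′ splice sites of the intron after the exon that all 4 share are given because they are alike in all 4 genes and far from the usual sequence, with the last 3 bases of the exon and the first 6 bases of the intron in capitals.
Clk1, chr1:58420101-58420130, minus strand: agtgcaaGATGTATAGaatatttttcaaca
Clk4, chr11:51273159-51273188, plus strand: agagcaaGATGTATAGaatatttttcaaca
Clk2, chr3:89169693-89169722, plus strand: caagagcGATGTACAAgccaaatcgtaaca
Clk3, chr9:57758607-57758636, minus strand: caagagcGATGTACAGccacctttcgtaaa
Each of the 4 sites matched the consensus CAGGTAAGT in 4 of 9 positions, and each began with GATGTA. Among 5744 annotated retained introns of the genes tested, 5.0% had 4 or fewer matches and 0.383% began in this way, and the median was 6 matches. The 9-base site of *Clk1* and *Clk4* was found in no other of these introns. Over the 30 bases shown, *Clk1* and *Clk4* were identical in 29 positions, *Clk2* and *Clk3* in 19, and pairs across these in 14 or 15. The pair of genes with nearly the same sequence was also the pair whose FPKM varied together, which is a description of 4 genes and not a test. *Paxbp1*, *Clcn2* and *Tia1*, described below, followed *Clk1* over the samples more closely than *Clk4* did.

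The genes of the cyclins L differed from each other. *Ccnl1* (ENSMUSG00000027829, chr3:65946151-65958249, minus strand) was at 38.6, 35.4 and 29.7 FPKM in the controls and at 34.1, 26.3 and 30.6 in the mutants, a log2 difference of -0.18 with an interval from -0.49 to 0.13. In replicate 3 it was slightly higher in the mutant, by 0.043. The difference was -0.085 without mutant replicate 2, -0.099 without control replicate 1 and -0.28 without control replicate 3. The ratio of *Ccnl2* to *Ccnl1* within a sample does not depend on how that sample was scaled. On a log2 scale this ratio was 0.42, 0.42 and 0.32 in control replicates 1, 2 and 3 and 0.22, 0.19 and 0.092 in the mutants. The groups did not overlap, and the mutant was lower by similar amounts in every replicate number, at -0.20, -0.23 and -0.23. The difference in the mean log2 ratio was -0.22, and it stayed between -0.25 and -0.18 with each sample left out in turn. The ratio uses the contrast on which *Ccnl2* was picked, so no test was made of it. How often the ratio of other pairs of genes separates the groups was not computed.

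**Figure D2:**
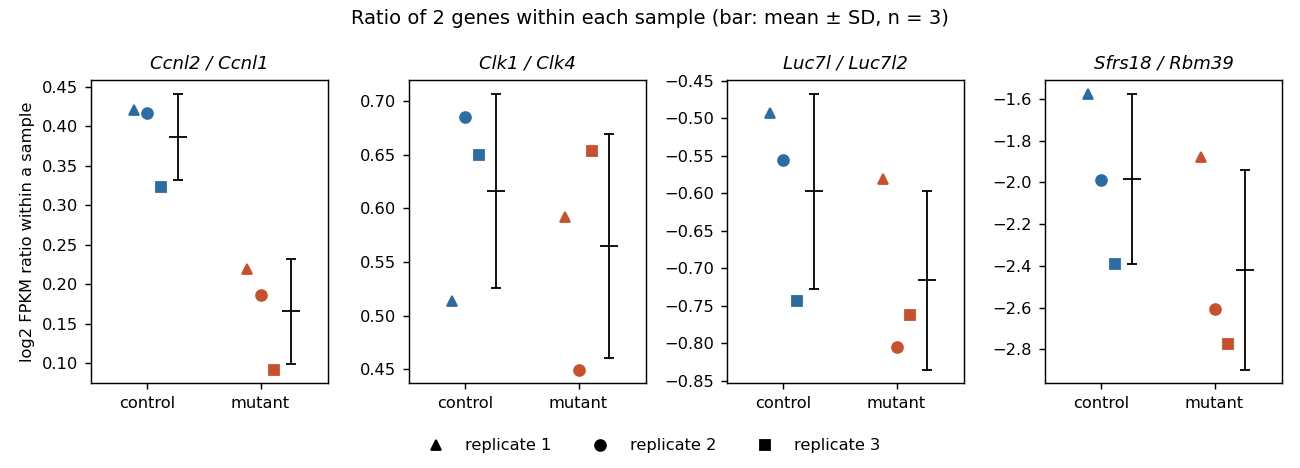
Log2 of the FPKM ratio of a pair of genes within each sample (vertical axes, which differ in scale between panels), with symbols for the replicate number and bars for the mean ± SD of 3 samples. *Ccnl2* over *Ccnl1* lies between 0.32 and 0.42 in controls and between 0.092 and 0.22 in mutants, while the groups overlap in the other 3 ratios. *Ccnl2* was picked on this contrast, and how often other pairs of genes separate the groups was not computed.

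The intron of *Ccnl2* that an annotated retained-intron transcript spans (chr4:155817988-155820328, 2341 bases) holds the motif TGCATG, the DNA form of UGCAUG, 3 times on the strand of the gene. A further TGCATG ends the exon directly before this intron and is not among the 3. The *Ccnl2* transcript in the study's isoform results is itself annotated as a retained-intron transcript. An exon of 1890 bases in it starts inside this intron, at chr4:155818539, and runs to 155820428. The 3 sites are shown with the motif in capitals because all of them lie in this exon.
Ccnl2, chr4:155819769-155819798: gttggcctcctcTGCATGatgtgcccatgc
Ccnl2, chr4:155819958-155819987: ctcatttgagttTGCATGtttctctgcact
Ccnl2, chr4:155820055-155820084: agcattgtgcttTGCATGatagcaggtcat
They lie 542, 353 and 256 bases before the 3′ end of the intron. Of the 18 annotated retained introns that could be read in 6 of the 10 genes, 5 held TGCATG on the strand of the gene, in *Ccnl1*, *Ccnl2*, *Clk3* and *Clk4*, and 4 held its reverse complement CATGCA, with which it can overlap. Over all 5744 retained introns the shares were 17.2% and 13.2%, but the introns of the members were longer, with a median of 389 bases against 259. Among 232 retained introns close in length to that of *Ccnl2*, 62.9% held TGCATG. A match is a description of the sequence and no sign that Rbfox2 binds there.

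The other members of the group act at or beside the 5′ and 3′ splice sites. *Luc7l* (ENSMUSG00000024188, chr17:26252896-26285504, plus strand) was at 49.8, 47.4 and 42.0 FPKM in the controls and at 45.1, 38.4 and 42.9 in the mutants, with a log2 difference of -0.14 (interval -0.37 to 0.094). *Rbm39* (ENSMUSG00000027620, chr2:156147239-156180238, minus strand) was at 181, 167 and 157 in the controls and at 174, 144 and 162 in the mutants, with a log2 difference of -0.078 (interval -0.32 to 0.16). Both were lower in the mutants of replicates 1 and 2 and slightly higher in that of replicate 3. Without mutant replicate 2 the differences were -0.073 for *Luc7l* and -0.0045 for *Rbm39*, and without control replicate 1 they were -0.084 and -0.025. In the other direction, *Luc7l* was at -0.20 and *Rbm39* at -0.13 without control replicate 3, and *Rbm39* was at -0.14 without mutant replicate 1. *Luc7l2* (ENSMUSG00000029823, chr6:38551334-38609470, plus strand), a paralog of *Luc7l*, varied as little as *Clk3*, at 70.1, 69.6 and 70.4 in the controls and at 67.5, 67.1 and 72.7 in the mutants. Its pooled SD within groups was 0.045 on the log2 scale, that of *Clk3* was 0.048 and that of *Luc7l* was 0.12. The log2 ratio of *Luc7l* to *Luc7l2* averaged -0.60 ± 0.13 over the control samples and -0.72 ± 0.12 over the mutant samples (SD) and overlapped between the groups.

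By level, *Rbm39* came first with a mean of 164 FPKM over the 6 samples, followed by *Luc7l2* with 69.6 and *Luc7l* with 44.3. The ranges of these 3 genes over the samples did not overlap. *Ccnl2* at 39.7, *Clk1* at 38.5, *Sfrs18* at 37.9, *Ccnl1* at 32.5, *Clk2* at 31.8, *Clk3* at 30.1 and *Clk4* at 25.6 FPKM followed, and the range of each over the samples overlapped that of the next. Within samples some of this order was steady, since *Ccnl2* exceeded *Ccnl1* and *Clk1* exceeded *Clk4* in all 6.

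Across the 10 genes, 9 had a lower mean in the mutants and 1, *Clk3*, a higher mean, and the median log2 difference was -0.16, against 0.0057 for all genes tested. The contrast was used in choosing members, so these counts are no independent evidence of a direction. The limma fit gave no adjusted p under 0.05 for any of the 10061 genes (0%), members included. At an unadjusted p under 0.05, 1 member, *Ccnl2*, was lower in the mutants, where 0.954% of all genes tested were lower and 0.706% higher. None of the 10 had mutant values all below the control values, as 2.37% of all genes tested did, or all above them, as 2.63% did. The mutant was lower in all 3 replicate numbers for 5 members, *Ccnl2*, *Sfrs18*, *Clk1*, *Clk4* and *Clk2*, and for 13.1% of all genes tested. With the replicate number as a block, 4 members, *Ccnl2*, *Sfrs18*, *Clk1* and *Clk4*, had an unadjusted p under 0.05 and were lower, against 3.70% of all genes tested, and no gene had an adjusted p under 0.05. The choice of members used this contrast, and the block rests on a pairing read from these values. These counts are therefore a description only.

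**Figure D3:**
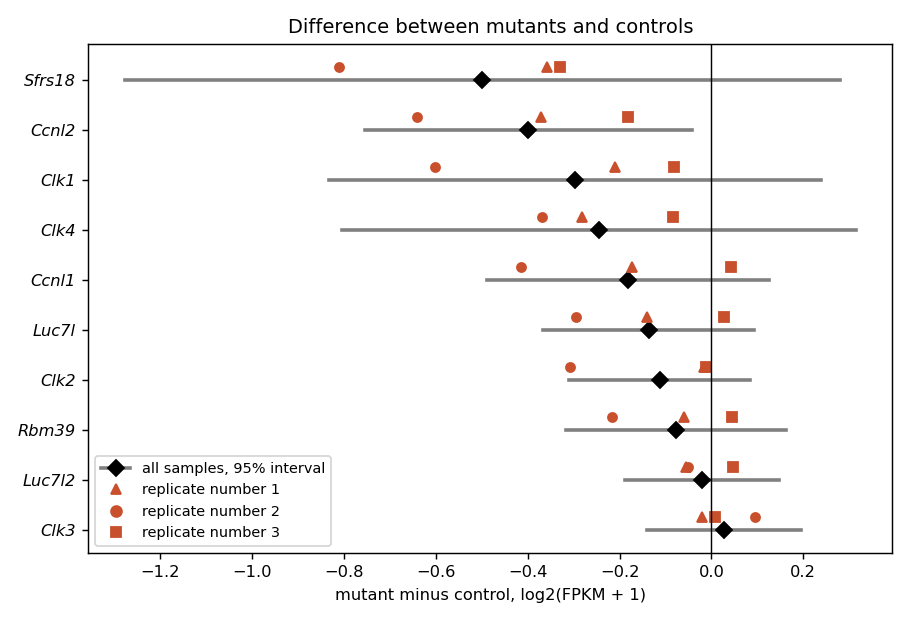
Difference between mutants and controls in log2(FPKM + 1) (horizontal axis) for each of the 10 genes, as the estimate over all samples with its 95% interval from limma (diamonds and bars) and as the difference within each replicate number (red symbols). The interval of *Ccnl2*, a gene picked on this contrast, runs from -0.75 to -0.042 and lies wholly below 0. Replicate 2 has the lowest value in 8 of the 10 genes.

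The genes were next followed over the 6 samples. Because the first replicates stood apart, no correlation over the samples was computed, and replicates 2 and 3, with 4 samples, were held too few for one. In 7 genes, *Sfrs18*, *Clk1*, *Clk4*, *Ccnl2*, *Ccnl1*, *Luc7l* and *Rbm39*, the highest sample was control replicate 1. Mutant replicate 2 was the lowest in 6 of these, and in *Clk4* it was mutant replicate 3. Relative to the mean of each gene, control replicate 1 was higher by 0.75 on the log2 scale in *Sfrs18*, 0.55 in *Clk4*, 0.48 in *Clk1*, 0.40 in *Ccnl2*, 0.26 in *Ccnl1*, 0.17 in *Luc7l* and 0.14 in *Rbm39*. The 7 genes thus ran through the samples in much the same order and differed in how far they moved. This set was named after its values were seen.

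**Figure D4:**
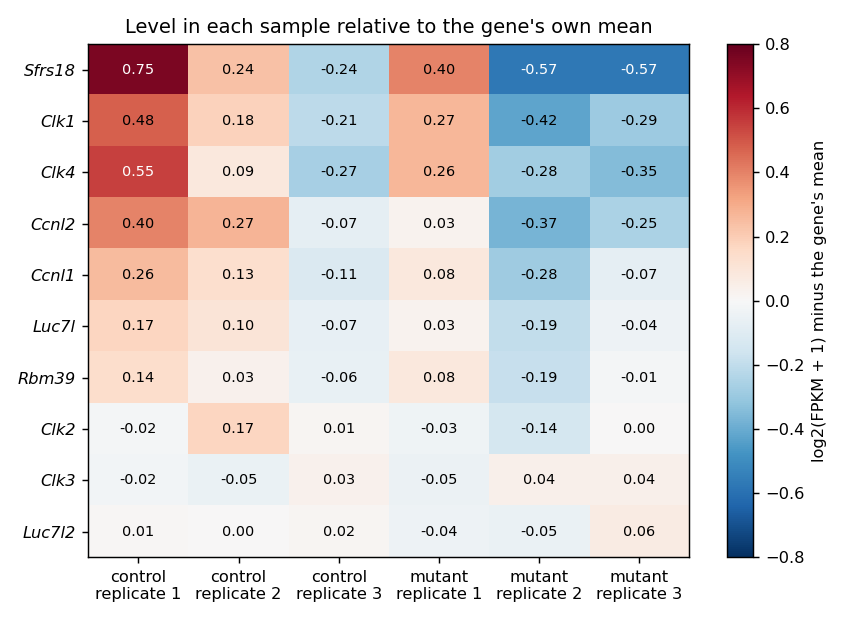
Log2(FPKM + 1) of each gene in each sample minus the mean of that gene over the 6 samples (colour and printed value). In the upper 7 rows control replicate 1 is the highest, from 0.75 in *Sfrs18* to 0.14 in *Rbm39*. The lower 3 rows have no value farther from 0 than 0.17, while *Rbm39* reaches -0.19.

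The likeness of a pair of genes was measured as the root mean square difference of these centred profiles over the 6 samples, where 0 means that they moved by equal amounts. Of the 45 pairs, *Luc7l* and *Rbm39* were the closest at 0.039, followed by the steady genes *Clk3* and *Luc7l2* at 0.047 and by *Ccnl1* and *Luc7l* at 0.060. *Clk1* and *Clk4* differed by 0.081, although each profile had a root mean square of 0.33 itself. The median over the pairs was 0.19. *Sfrs18* lay far from the steady genes, at 0.54 from *Clk3* and 0.51 from *Luc7l2*, and nearest to *Clk1*, at 0.18.

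Much of this shared variation followed the first replicates. With a term for genotype in the fit, the first replicates exceeded the others by 0.86 on the log2 scale in *Sfrs18*, 0.61 in *Clk4*, 0.56 in *Clk1*, 0.32 in *Ccnl2*, 0.25 in *Ccnl1*, 0.17 in *Rbm39* and 0.15 in *Luc7l*. *Clk2*, *Clk3* and *Luc7l2* were at -0.035, -0.053 and -0.024. Of all genes tested, 18.5% exceeded 0.15 and 1.93% exceeded 0.5, a size that 3 of the members passed, and the median was -0.054. Within control replicates 2 and 3 the genes differed too, *Sfrs18* being at 42.2 and 29.98 FPKM and *Clk1* at 42.7 and 32.3. Markers of other cell types also moved with the first replicates. The summed FPKM of 6 erythroid markers was 2866 and 2561 in the first replicates of controls and mutants and 1432 to 2220 in the other samples, and that of 6 skeletal muscle markers was 131 and 126 against 148 to 326. That of 5 endothelial markers was lower in the first replicates, at 69.0 and 73.9 against 83.9 to 97.8. For 6 epithelial markers it was 109 and 107 in the first replicates, 108 in mutant replicate 3 and 149 to 191 in the other samples. None of these markers was at 0 in all samples, and their part in the result was not tested.

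**Figure D5:**
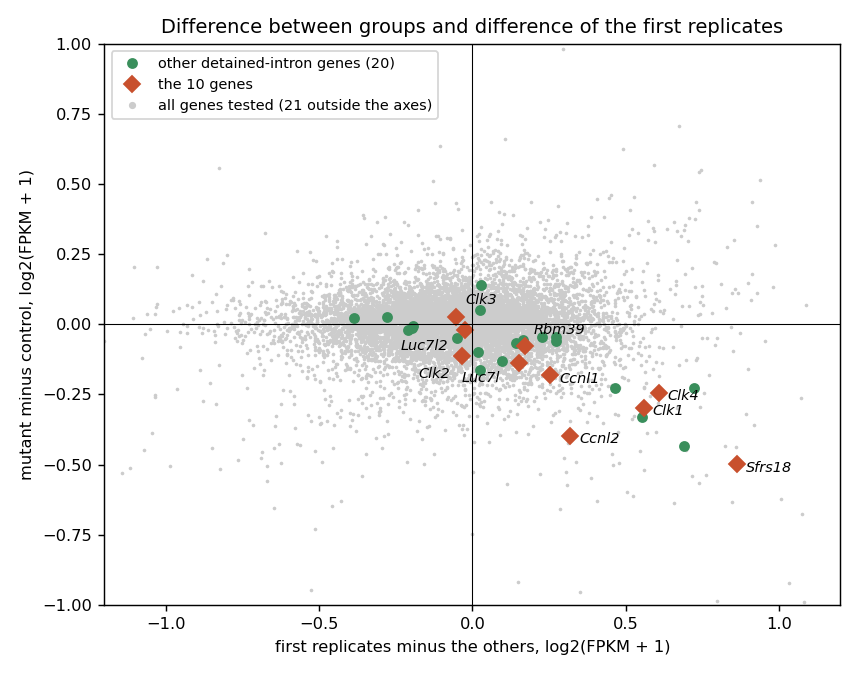
Difference of the first replicates from the other samples (horizontal axis) and difference between mutants and controls (vertical axis), both in log2(FPKM + 1), for all genes tested (grey), the 10 genes (diamonds) and 20 other genes known for detained introns (circles), with 21 genes outside the axes. *Sfrs18*, *Clk1* and *Clk4* lie beyond 0.5 on the horizontal axis, and *Clk2*, *Clk3* and *Luc7l2* lie near 0 on it.

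Other genes known for detained introns were looked at as a list of 20, all of which were tested. In limma none of them had an unadjusted p under 0.05 in either direction, and their median log2 difference was -0.053, with 16 lower and 4 higher in the mutants, where 47.2% of all genes tested were lower. The smallest p was that of *Mgea5*, the gene for the enzyme that removes O-GlcNAc from proteins, at 52.4, 50.7 and 52.6 FPKM in control replicates 1, 2 and 3 and 58.3, 55.6 and 58.1 in the mutants, a log2 difference of 0.14 with a standard error of 0.068 (adjusted p = 0.99999 from limma). Its mutant values all lay above its control values, against the direction of most of the list. With the replicate block, 4 of the 20 had an unadjusted p under 0.05, namely *Mgea5*, which was higher, and *Paxbp1*, *Tia1* and *D4Wsu53e*, now named *Rsrp1*, which were lower. Of all genes tested, 2.31% were higher and 3.70% lower at this p with the block. *Ogt*, the gene for the enzyme that adds O-GlcNAc, is named here after its values were seen. It was at 70.5, 49.0 and 36.1 FPKM in the controls and at 59.5, 34.2 and 37.9 in the mutants, and its first replicates exceeded the others by 0.72 on the log2 scale.

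Other kinases and the partners of the members were looked at in the same way. Of 12 other kinases of the CLK, DYRK, HIPK and SRPK kind, 10 were tested and none passed an unadjusted p of 0.05, with a median of -0.0049. *Hipk3*, a nuclear serine and threonine kinase, had the smallest p among them, with a log2 difference of -0.18 and a standard error of 0.10 (adjusted p = 0.99999 from limma). Of 17 SR proteins and cofactors, which are substrates of the CLK kinases, none passed, and the median was -0.056. *Srrm2*, a large scaffold protein of nuclear speckles, had the smallest p, at 56.1, 78.3 and 65.8 FPKM in the controls and at 55.8, 53.01 and 58.7 in the mutants, a log2 difference of -0.24 with a standard error of 0.13 (adjusted p = 0.99999 from limma). It was -0.12 without control replicate 2, and *Hipk3* was then at -0.087.

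None of the 12 transcription cyclins and their kinases, 11 U1 and U2AF partners and 10 factors of nonsense-mediated decay passed an unadjusted p of 0.05 either, with medians of 0.010, 0.027 and -0.011. The smallest p-values in these lists were those of *Cdk10*, *Snrpc* and *Smg9*. The U1 and U2AF partners did not share the shift of the first replicates, since all 11 were lower there than in the other samples, with a median of -0.17. This was not particular to them. The nonsense-mediated decay factors had a median of -0.25, with 2 of 10 higher in the first replicates, and the median of all genes tested was also negative.

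Nuclear long noncoding RNAs, which like detained-intron transcripts stay in the nucleus, moved with the first replicates in the direction of *Sfrs18* and *Clk1*. All 3 that were tested were on average higher in them, with a median of 1.23 on the log2 scale. In *Malat1*, however, control replicate 2, at 23.2 FPKM, exceeded control replicate 1, at 20.7. Of the other RNAs listed, *Neat1* did not pass the filter and *Kcnq1ot1* was absent from the deposited genes. *Meg3* had the smallest p in the contrast of mutants with controls without the block, at 212, 167 and 87.6 FPKM in the controls and at 163, 49.97 and 52.0 in the mutants, a log2 difference of -0.94 with a standard error of 0.51 (adjusted p = 0.99999 from limma). It was -1.50 without mutant replicate 1. With the replicate block, *Meg3* and *Miat* passed an unadjusted p of 0.05, both lower in the mutants, and neither had an adjusted p under 0.05 in limma. Control replicate 1 was the highest and mutant replicate 2 the lowest sample of *Meg3*, as in 6 of the members. Whether these RNAs and the members vary for the same reason was not tested.

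The members also differ from other genes in their annotation, which the measured values did not enter. In GENCODE M21, 9 of the 10 genes have at least 1 transcript of the retained-intron type and 8 have 3 or more, against 63.0% and 25.1% of 9776 protein-coding genes tested. *Sfrs18* has none, and 9 of its 13 transcripts are of the type processed transcript. All 10 genes have at least 1 transcript marked for nonsense-mediated decay, against 30.3% of the genes. The members have more annotated transcripts of any kind, with a median of 13 against 5, and they were named for their detained introns, so that these shares describe the choice. *Clk2*, *Clk3* and *Luc7l2*, in which control replicate 1 was not the highest sample, have 4, 4 and 3 retained-intron transcripts. Among the other members, *Ccnl1* has 8, *Clk1*, *Clk4* and *Rbm39* have 7 each, *Ccnl2* has 3, *Luc7l* has 2 and *Sfrs18* has 0. How far the genes varied does not part these sets sharply. The profile of *Clk2* had a root mean square of 0.091 and that of *Rbm39* of 0.105. *Ccnl1*, *Clk3*, *Clk4*, *Luc7l* and *Luc7l2* overlap a gene on the other strand. On the same strand, *Clk4* also overlaps a gene of the type misc_RNA and *Luc7l* a processed pseudogene. No source used here tells how reads were assigned to genes, so the values of these genes are less certain.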

How the data were processed

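Poly(A)+ RNA of 3 control and 3 mutant samples was sequenced from stranded paired-end libraries. The authors aligned the reads with STAR to GRCm38 and deposited FPKM values, 1 per gene and sample. Versions of STAR and Cuffdiff, the annotation release and the step that made the gene table are not given in the sources used here. The tables of single samples held the same values as the table of all samples (0 differences). Replicates are embryonic samples described as independent, and whether a sample was 1 embryo or a pool is not given. FPKM keeps no read count, so no interval for counting error could be given.

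A gene was kept if its FPKM was over 5 in each of the 3 samples of at least 1 genotype, as the methods state for Cuffdiff. Values were taken to log2(FPKM + 1), and all 10061 genes were fitted in R 4.3.3 by limma 3.58.1, which let the variance depend on the level and had genotype as its only term. P-values were adjusted across all genes tested by the Benjamini-Hochberg method, and the fit was tested on simulated data. The simulated noise was drawn independently for each gene and sample, without the shift of the first replicates. It therefore does not show how the fit behaves on these data. Fold changes on this scale understate the change of low genes. Ratios within a sample used FPKM without a pseudocount. The members and lists were chosen with earlier results of these data known. Named genes are the members, *Rbfox2*, the gene with the smallest p in each of 7 lists (at most 3 where any passed an unadjusted p of 0.05), and for *Ccnl2*, *Sfrs18* and *Clk1* the 3 genes with the closest profile. *Ogt*, *Malat1* and the genes that passed only with the replicate block were named after their values were seen. Of 88 list entries, 83 were tested.

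The labels use the same replicate numbers in both groups. For numbers 1, 2 and 3, the control and the mutant sample deviated together from their group means, with correlations across genes of 0.64, 0.26 and 0.51, so that the numbers were taken to pair the samples. Samples of different numbers correlated at -0.68 to 0.40, and mutant replicate 2 correlated more with control replicate 3 (0.40) than with control replicate 2. Control replicate 2 correlated nearly as much with mutant replicate 3 (0.23) as with mutant replicate 2 (0.26). Only the first replicates were thus clearly linked, and the pairs of numbers 2 and 3 are uncertain. This pairing rests on the values, since no source ties the numbers to litters or days. Alternatives were a pseudocount of 0.1, median ratio scaling, quantile normalization, a filter at a mean FPKM of 1 and none, limma without the trend, the replicate block, the Y-linked covariate, a term for the first replicates, and each of the 6 samples left out.

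Gene positions, transcript types and intron sequences were read from GENCODE M21 (GRCm38), in which 99.4% of the genes tested were found. A retained intron is an intron of a protein-coding transcript that lies, with 10 bases on either side, within an exon of a retained-intron transcript of that gene.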

Additional observations from a re-analysis of the deposited data

How the results depend on the processing

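The log2 fold change of 9 of the 10 members kept its direction under all 15 alternatives. That of *Luc7l2* turned to 0.054 with the Y-linked covariate, a fit that rests mainly on mutant replicate 3. The median of the members, -0.16, ranged from -0.24 without control replicate 3 to -0.079 without mutant replicate 2. *Sfrs18* was at -0.83 and *Clk4* at -0.48 with the Y-linked covariate. *Ogt*, at -0.23, turned to 0.016 without control replicate 1 and was at -0.46 without mutant replicate 1.

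In the limma fit of all genes, 167 passed an unadjusted p of 0.05 and 0 passed an adjusted p of 0.05. The adjusted count was 3 with a term for the first replicates and 0 to 1 with a sample left out. The unadjusted count was 286 with a filter at a mean FPKM of 1, 663 with no filter, 604 with the replicate block and 611 with the term for the first replicates. With a sample left out it ran from 78 without control replicate 2 to 649 without control replicate 1, and it was 413 without mutant replicate 1 and 108 without mutant replicate 2. The cause was not tested. The replicate block changed no adjusted call.

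In the lists, where no gene passed an unadjusted p of 0.05 in the main comparison, the replicate block gave 1 SR protein or cofactor, 2 nuclear noncoding RNAs and 4 other detained-intron genes. The term for the first replicates gave 2, 2 and 4. With a sample left out the counts were 0 to 1 for SR proteins and for nonsense-mediated decay factors and 0 to 2 for nuclear noncoding RNAs, other detained-intron genes and other kinases. The ratios within a sample were also computed with a pseudocount of 1, chosen after the data were seen, and no ratio moved beyond its spread.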

Other observations

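The genes with the most similar profiles were looked for among all genes tested, members left out, by the root mean square difference of centred log2(FPKM + 1) over the 6 samples. The closest to *Sfrs18* was *Wsb1*, which encodes a substrate-binding subunit of a ubiquitin ligase, at 0.057. *Wsb1* was at 143, 107 and 72.7 FPKM in control replicates 1, 2 and 3 and at 123, 57.5 and 62.3 in the mutants, higher than *Sfrs18* in every sample and in nearly the same proportions. *2610203C20Rik* at 0.091 and *Pisd-ps1* at 0.11 followed.

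The closest to *Clk1* was *Paxbp1*, named for its binding to Pax proteins, at 0.021, nearer than *Clk4*, which ranked number 5 among all genes. *Paxbp1* was at 37.1, 30.8 and 23.1 FPKM in the controls and at 32.0, 19.1 and 21.2 in the mutants. *Clcn2*, a chloride channel gene, was at 0.073, and so was *Tia1*, which encodes an RNA-binding protein that helps U1 snRNP to reach weak 5′ splice sites. *Tia1* was at 89.1, 71.1 and 59.1 FPKM in the controls and at 76.7, 52.0 and 57.9 in the mutants. *Paxbp1* and *Tia1* are both in the list of other detained-intron genes, which was drawn up with earlier results of these data known. The share of that list among close profiles was not computed.

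*Ccnl2* had no neighbour as close for its size, with *Ttc14* at 0.088, *Crtc2*, a coactivator of CREB, at 0.088 and *2410018L13Rik* at 0.091, and its nearest member, *Ccnl1*, ranked number 27. With 6 samples and 10061 genes, close profiles are found for many genes, and no test was made of any of them.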
